A study of Homo sapiens with 24 samples.

Results

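A set of 10 secreted signals that airway epithelium can release were followed in A549 cells: the chemokines CXCL10, CXCL11, CCL5, CCL2, CXCL1, CXCL2, CXCL5 and CXCL8 and the cytokines IL6 and TNFSF13B. They were chosen by name, and all 10 were found among the 60609 gene rows of the table. A549 is an established line from a human lung adenocarcinoma. The cells carried siRNA against BOP1 (siBOP1), supplied as a pool, or against firefly luciferase (siFLuc), a gene that human cells lack, for 48 h. Mock treatment or interferon beta (IFN-β, 1000 U/mL) followed for 8 h or 12 h. The 8 groups were siFLuc mock, siFLuc IFN, siBOP1 mock and siBOP1 IFN at each time, with 3 libraries in each group and 24 in all. All groups thus share the cell line, the transfection and the 48 h of siRNA. As a culture of 1 line, the cells grew without leukocytes, stroma or other cell types that would answer these signals. The labels do not state that the replicates came from separate cultures, so p-values measure only the spread between these libraries, which may be technical.

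Chemokines are small secreted proteins that guide leukocytes by binding G-protein-coupled receptors. CXCL10 and CXCL11 act on CXCR3 of activated T cells and NK cells, and CXCL10 is a long-known interferon-induced gene. CXCL1, CXCL2, CXCL5 and CXCL8 carry a glutamate-leucine-arginine (ELR) sequence before their first cysteines and draw neutrophils through CXCR2, and CXCL8 also through CXCR1. CCL2 draws monocytes through CCR2, and CCL5 draws T cells and monocytes. IL6 is an acute-phase cytokine that signals through gp130 (IL6ST), and TNFSF13B (BAFF) is a survival factor for B cells. Type I interferon acts through IFNAR1 and IFNAR2 on a complex with STAT2 and IRF9 that binds interferon-stimulated response elements (ISRE). The ELR chemokines and IL6 are classical targets of NF-κB, which binds κB elements.

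Of the 10 genes, 6 lie on chromosome 4, and promoter stretches are shown because the ISRE and κB elements named above are where the signals are known to act. On GRCh38, GENCODE 29 places the protein-coding genes CXCL8 at chr4:73740506-73743716, CXCL1 at chr4:73869393-73871242, CXCL5 at chr4:73995642-73998779, CXCL2 at chr4:74097035-74099293, CXCL10 at chr4:76021117-76023497 and CXCL11 at chr4:76033682-76041415. CXCL8 and CXCL1 are on the plus strand and the other 4 on the minus strand. CCL2 (chr17:34255218-34257203, plus strand) and CCL5 (chr17:35871491-35880793, minus strand) lie on chromosome 17, IL6 at chr7:22725884-22732002 (plus strand) and TNFSF13B at chr13:108251240-108308484 (plus strand). The RefSeq promoter table (GRCh38.p14) held windows from 250 bases before to 50 after the start for 8 of the 10 genes. CCL2 and CCL5 had no entry. The starts used are those of RefSeq, and the GENCODE genes can begin further upstream. The stretches of CXCL11, IL6 and TNFSF13B below lie inside the GENCODE spans given above. Those of CXCL2, CXCL5 and CXCL8 lie partly inside. Both strands were searched for GAAANNGAA (ISRE core), TTCNNNGAA (the GAS element of STAT dimers) and GGANNNTCC (a κB core), and the last pair read the same on both strands. Stretches of 100 bases around a match, upstream of the start (for TNFSF13B, of the second start), are given 5′ to 3′ along the gene, with matches in capitals.

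The ISRE core in the CXCL10 and TNFSF13B stretches is the same 9 bases, GAAAGTGAA. In CXCL10 (chr4:76023648-76023747, minus strand) it is followed by a κB core, and the TNFSF13B stretch, before the second of its 2 annotated starts (chr13:108269618-108269717, plus strand) has none.
CXCL10: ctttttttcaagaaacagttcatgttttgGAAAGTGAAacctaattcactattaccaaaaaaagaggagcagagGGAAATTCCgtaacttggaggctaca
TNFSF13B: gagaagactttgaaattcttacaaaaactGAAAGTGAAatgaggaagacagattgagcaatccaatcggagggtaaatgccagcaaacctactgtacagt

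CXCL11 (chr4:76036075-76036174, minus strand) carries in this stretch the same κB word as CXCL10, GGAAATTCC. Its window held no ISRE core by the letters searched.
CXCL11: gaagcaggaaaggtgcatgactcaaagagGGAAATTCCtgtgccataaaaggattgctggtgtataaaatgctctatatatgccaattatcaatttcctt

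All 4 ELR genes hold GGAATTTCC, which is the κB word of CXCL10 and CXCL11 read on the opposite strand, between 77 and 91 bases before the start. The stretches are CXCL1 (chr4:73869286-73869385, plus strand), CXCL2 (chr4:74099202-74099301, minus strand), CXCL5 (chr4:73998697-73998796, minus strand) and CXCL8 (chr4:73740449-73740548, plus strand). In CXCL5 the capitals hold a GAS match that overlaps the κB word. IL6 (chr7:22727099-22727198, plus strand) has a different κB word, GGATTTTCC.
CXCL1: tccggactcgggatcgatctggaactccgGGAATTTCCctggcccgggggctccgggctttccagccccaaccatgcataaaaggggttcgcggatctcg
CXCL2: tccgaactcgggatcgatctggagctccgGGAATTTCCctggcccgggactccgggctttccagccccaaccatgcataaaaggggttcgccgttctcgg
CXCL5: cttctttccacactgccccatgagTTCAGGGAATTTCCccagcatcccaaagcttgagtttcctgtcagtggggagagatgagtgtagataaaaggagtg
CXCL8: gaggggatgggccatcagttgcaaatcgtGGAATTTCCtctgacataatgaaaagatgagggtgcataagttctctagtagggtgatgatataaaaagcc
IL6: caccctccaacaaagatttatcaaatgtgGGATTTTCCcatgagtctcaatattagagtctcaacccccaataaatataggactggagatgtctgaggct
The CXCL1 and CXCL2 stretches share an identical run of 42 bases, whereas the longest run shared by CXCL8 and CXCL5 is the 9-base word itself.

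A κB core stood before the RefSeq start of 7 of the 8 genes, TNFSF13B being the exception. An ISRE core stood before that of CXCL10, that of CXCL2 and the second start of TNFSF13B. The TNFSF13B core lies 71 bases before that start and 18 bases after the first one. In CXCL2 the ISRE core lies 217 bases upstream, and in IL6 it lies 26 bases after the start. Among all 35116 windows of the table, 8.11% held the ISRE core, 7.66% GAS and 9.32% the κB core. The exact words, picked out after the matches were seen, were in 0.478% (GAAAGTGAA) and 0.461% (GGAATTTCC, either strand) of windows. A match describes letters in a short window and shows no binding, and a missing match says only that these letters are not there.

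**Figure D1:**
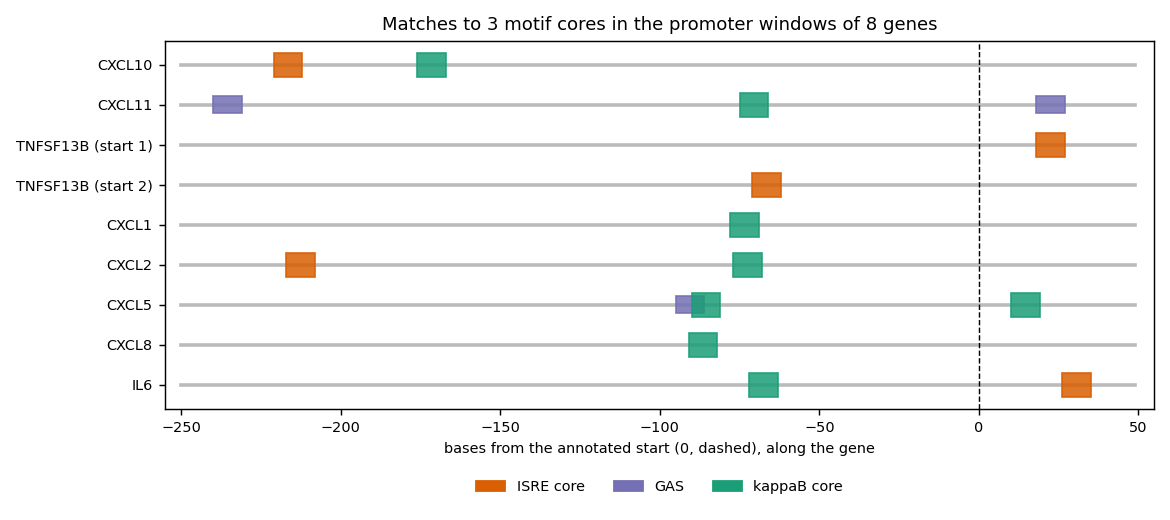
Matches to the ISRE, GAS and κB cores along the promoter windows of 8 genes, in bases from the annotated start (dashed line), each box 9 bases long; TNFSF13B has 2 annotated starts. The κB boxes of the 4 ELR genes line up between 77 and 91 bases before the start, and the ISRE boxes of CXCL10 and TNFSF13B hold the same word.

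BOP1, a factor of large-subunit ribosome assembly, averaged between 46.0 and 66.4 TPM (abundance scaled to transcript length and library total) in the siFLuc groups and between 11.1 and 18.6 TPM in the siBOP1 groups, and was called lower in all 4 comparisons. Keratins 8 and 18 led the epithelial markers, whose sum ran from 4024 to 6864 TPM. EPCAM was low, with at most 5.48 TPM. The leukocyte markers summed to between 2.48 and 7.28 TPM over 7 genes. CD14 and ITGAM were above 0 in all 24 libraries, with at most 5.26 and 2.32 TPM. CD3E and MS4A1 were listed at 0 in all 24, and PTPRC at most 0.021 TPM. Endothelial markers summed to at most 0.453 TPM, and fibroblast markers were between 5.37 and 19.3 TPM. In each group, 1 library carries the column number 4, which matches no replicate of the labels. In the 12 h libraries numbered 4, the immediate-early genes FOS, JUN, DUSP1 and ZFP36 summed to between 347 and 1325 TPM, against 96.8 to 154 in the other 12 h libraries and 79.9 to 119 at 8 h. The highest was siFLuc mock 12 h number 4. TPM values keep no read depth, so the depth behind each value is unknown.

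The mRNA levels of the 10 genes differed widely in mock cells. TPM is scaled by transcript length, so levels can be set side by side. In the siFLuc mock 8 h group, CXCL5 came first with 940 ± 90.0 TPM (SD, n = 3), followed by CXCL1 with 389 ± 101, CXCL8 with 254 ± 81.2 and CCL2 with 178 ± 26.7. The replicate ranges of CXCL1 and CXCL8 overlapped there, as did those of CXCL8 and CCL2. CXCL2 followed with 39.9 ± 2.80 TPM, IL6 with 6.42 ± 2.06 and CCL5 with 2.78 ± 2.09. TNFSF13B, CXCL10 and CXCL11 were near 0, with 0.234 ± 0.205, 0.132 ± 0.129 and 0 TPM. With IFN-β at 8 h the order of the first 5 was the same, and IL6, TNFSF13B, CXCL10, CCL5 and CXCL11 followed, the last 3 with ranges of 7.77 to 8.54, 5.47 to 8.27 and 4.88 to 7.08 TPM. The CCL5 range overlapped those of CXCL10 and CXCL11, which did not overlap each other. The ELR genes made up most of the output: they held 86.2% to 92.3% of the summed TPM of the 10 genes in the 12 mock libraries and 81.7% to 89.8% in the 12 IFN libraries. The sum itself was 0.163% to 0.331% of all TPM in mock and 0.242% to 0.403% with IFN-β.

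**Figure D2:**
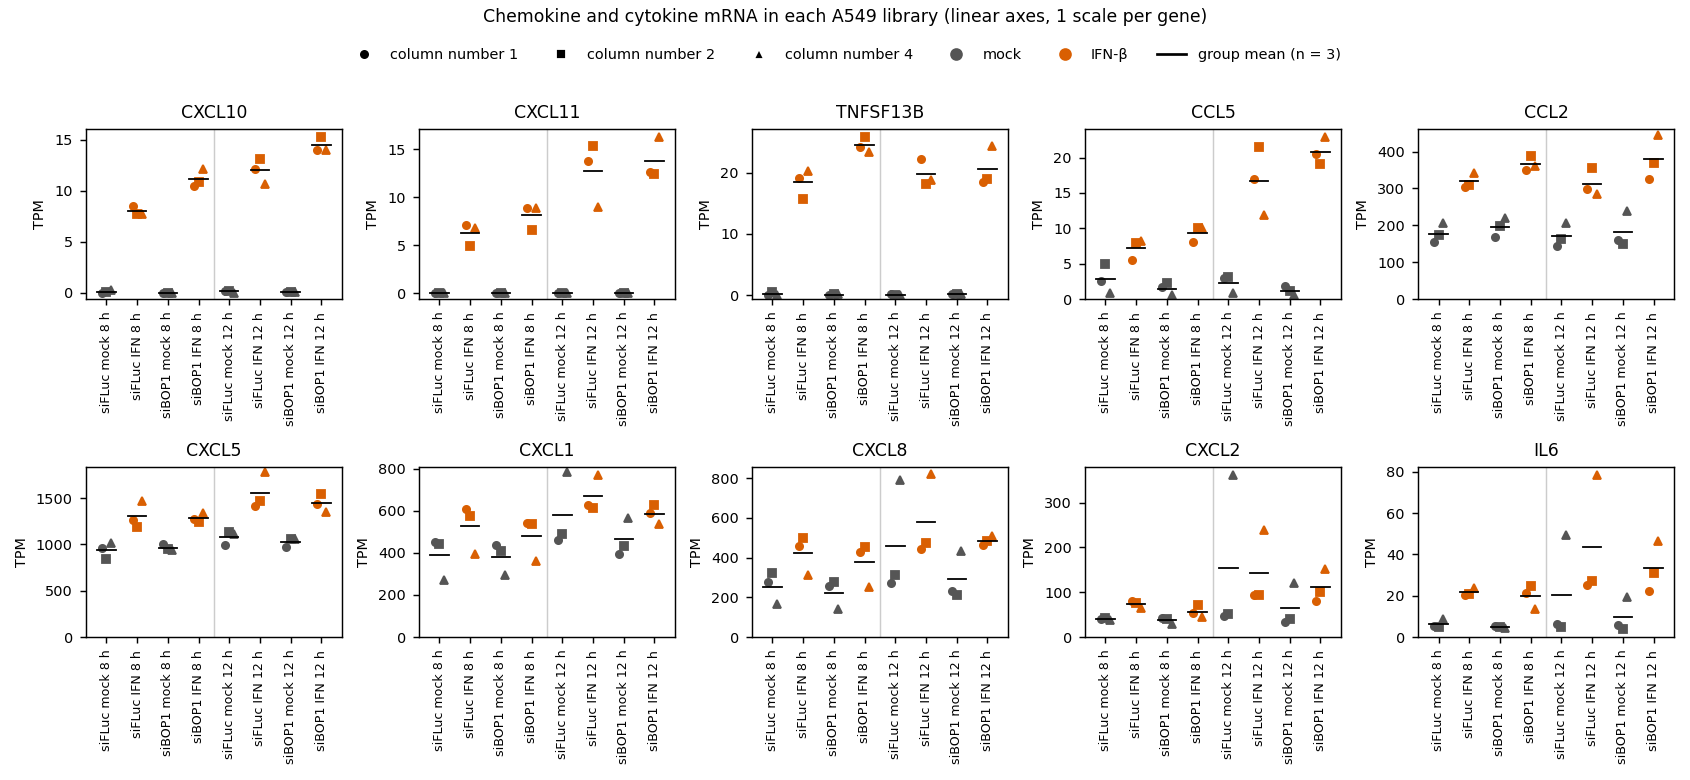
TPM of each gene in every library (marker shape, column number; colour, treatment; bar, mean of 3 libraries), on a linear axis of its own, for the 8 groups along the horizontal axis; the vertical axes of CXCL10, CXCL11 and TNFSF13B start slightly below 0. CXCL10, CXCL11 and TNFSF13B lie at or near 0 in all mock libraries and between 4.88 and 25.8 TPM with IFN-β, whereas the 12 h triangles of CXCL8, CXCL2 and IL6 lie above the other markers of their group.

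IFN-β raised 6 of the 10 genes in siFLuc cells at 8 h and again at 12 h, and 7 of 10 in siBOP1 cells at each time. None fell. In bulk RNA, more expressing cells and more RNA per cell cannot be told apart. Over all 16062 genes tested, 5.77% and 7.06% were called higher at 8 h and 12 h with siFLuc, and 5.99% and 7.17% with siBOP1 (limma, Benjamini-Hochberg adjusted p below 0.05). CXCL10, CXCL11, TNFSF13B, CCL5, CCL2 and CXCL5 were called in all 4 comparisons, and IL6 in the siBOP1 ones. The median difference of the 10 genes in log2(TPM + 1) with siFLuc was 1.07 at 8 h and 1.23 at 12 h, against -0.09 and -0.06 over all genes tested. With siBOP1 it was 1.35 and 1.48, against -0.14 and -0.08. All differences are on this scale, which understates the change of genes near 0. Where 4 values follow each other without further labels, the first 2 belong to siFLuc (8 h, 12 h) and the last 2 to siBOP1 (8 h, 12 h).

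**Figure D3:**
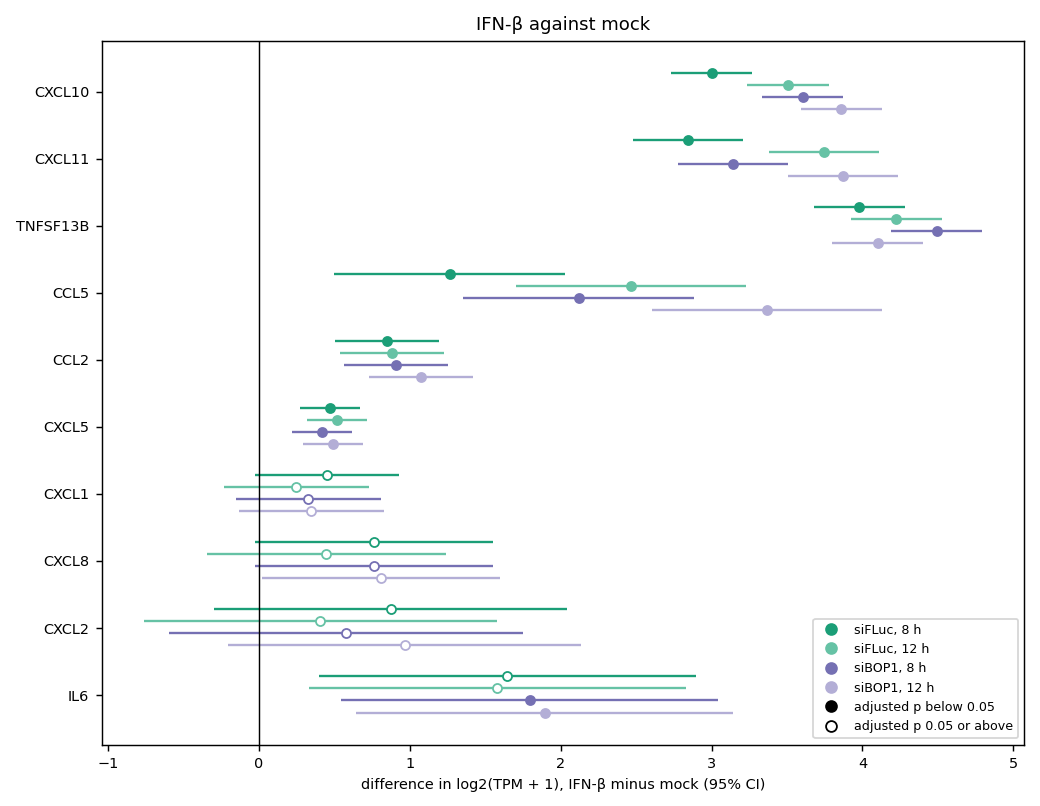
Difference in log2(TPM + 1) between IFN-β and mock libraries (points, with 95% confidence intervals from limma) for each gene, siRNA and time; filled points have an adjusted p below 0.05. The intervals of CXCL10, CXCL11 and TNFSF13B start at 2.48 or higher, those of CCL2 and CXCL5 are narrow and lower, and those of CXCL1, CXCL8 and CXCL2 reach 0 or nearly so.

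CXCL10 went from near absence to a modest level. It was listed at 0, 0.138 and 0.258 TPM in the siFLuc mock libraries at 8 h, and IFN-β libraries held 8.54, 7.77 and 7.77 TPM. At 12 h, values of 0.216, 0.223 and 0 in mock stood against 12.2, 13.2 and 10.7 with IFN-β. In siBOP1 cells, all 3 mock libraries were at 0 at 8 h and IFN-β gave 10.5, 10.9 and 12.1, while at 12 h 0.067, 0.067 and 0.058 stood against 14.0, 15.3 and 14.0. No mock value came near an IFN-β value. The differences were 3.00 (SE 0.13), 3.51, 3.60 and 3.86, with adjusted p of at most 1.05e-13. In the siBOP1 pair at 12 h, where all mock values were above 0, the ratio of mean TPM was 226. It rests on mock values of at most 0.067 TPM, so its size is uncertain.

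CXCL11, the other CXCR3 ligand of the set, was all but absent from mock cells. It was at 0 in 11 of 12 mock libraries and at 0.078 TPM in the other. With IFN-β, siFLuc libraries held 7.08, 4.88 and 6.77 TPM at 8 h and 13.8, 15.3 and 8.98 at 12 h. The siBOP1 libraries held 8.84, 6.60 and 8.91 TPM at 8 h and 12.6, 12.4 and 16.3 at 12 h. The differences were 2.84 (SE 0.17), 3.74, 3.14 and 3.87, with adjusted p of at most 5.52e-11. CXCL9, the third ligand of this receptor, was listed at 0 in all 24 libraries, IFN-β ones included.

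On the scale of the fit, TNFSF13B showed the largest difference among the 10 genes in each of the 4 IFN comparisons. That scale understates changes from mock values near 0, so the rank depends on it. By ratio of mean TPM, TNFSF13B was below CXCL10 in siBOP1 cells at 12 h. Mock values of TNFSF13B lay between 0.041 and 0.47 TPM (median 0.157, 12 libraries) and IFN-β values between 15.7 and 25.8 TPM (median 19.7), so the arms were far apart. Differences were 3.98 (SE 0.14), 4.22, 4.49 and 4.10, or 78.6, 188, 188 and 82.6 times by mean TPM, with adjusted p of at most 5.99e-15. Its receptors TNFRSF13B and TNFRSF17 were listed at 0 in 24 and 23 libraries, and TNFRSF13C reached 0.314 TPM at most.

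CCL5 rose from a low base. In siFLuc cells at 8 h, mock libraries held 2.50, 5.00 and 0.837 TPM and IFN-β libraries 5.47, 7.90 and 8.27. These groups were adjacent, with the highest mock value just under the lowest IFN-β value. At 12 h, 3.04, 3.10 and 0.858 stood against 17.0, 21.4 and 11.8. In siBOP1 cells, 1.66, 2.21 and 0.585 stood against 8.13, 10.0 and 10.0 at 8 h, and 1.82, 1.15 and 0.551 against 20.5, 19.2 and 22.9 at 12 h. In the mock groups the library numbered 4 was the lowest each time. The differences were 1.26 (SE 0.37, adjusted p = 0.0289), 2.46 (5.06e-05), 2.12 (0.000298) and 3.37 (6.51e-07). The first of these was lost when any 1 of 4 libraries was left out: without siFLuc mock 8 h number 4 it was 0.82 with adjusted p = 0.182, without mock number 1 1.29 (0.0691), without IFN number 2 1.20 (0.0963) and without IFN number 4 1.17 (0.0898). A pseudocount of 0.1 gave an adjusted p of 0.0583 and the block by column number 0.006.

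CCL2 was abundant before treatment and rose by a moderate factor. Mock values lay between 143 and 240 TPM (median 170) and IFN-β values between 284 and 446 TPM (median 346), with no overlap over the 12 libraries of each arm. The ratios of mean TPM were 1.79, 1.83, 1.88 and 2.08. On the log2 scale this was 0.85 (SE 0.17), 0.88, 0.91 and 1.07, with adjusted p of 0.00127, 0.000745, 0.00051 and 7.84e-05. Its receptor CCR2 was listed at 0 in all 24 libraries, as was CXCR3.

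CXCL5 had the highest level and the smallest change that was called. In siFLuc cells at 8 h, mock libraries held 961, 842 and 1018 TPM and IFN-β libraries 1268, 1182 and 1467. At 12 h, 989, 1138 and 1116 stood against 1413, 1466 and 1786. In siBOP1 cells, 999, 946 and 944 stood against 1276, 1241 and 1339 at 8 h, and 971, 1055 and 1053 against 1438, 1543 and 1347 at 12 h. Every IFN-β library was above every mock library. The differences were 0.47 (SE 0.09), 0.52, 0.42 and 0.49, with adjusted p of 0.00171, 0.000567, 0.00429 and 0.000989. Fitted on its own 2 groups alone, the 8 h siFLuc difference had an adjusted p of 0.0534.

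The other 3 ELR chemokines were higher with IFN-β in most libraries but did not pass the threshold in the main fit, which has no block. CXCL8 held 277, 322 and 164 TPM in siFLuc mock and 458, 497 and 315 in siFLuc IFN at 8 h, and in siBOP1 cells 255, 277 and 140 against 428, 454 and 251. The order of the libraries was the same in each of these groups, with number 4 lowest, so the ranges overlapped although the IFN-β library of each number was the higher one. At 12 h, number 4 was highest: 272, 314 and 790 in siFLuc mock against 442, 474 and 821, and 232, 210 and 433 in siBOP1 mock against 461, 485 and 509, the last pair without overlap. The differences were 0.76 (SE 0.38, adjusted p = 0.239), 0.45 (0.502), 0.77 (0.194) and 0.81 (0.17). When libraries were blocked by column number, the adjusted p were 0.00396, 0.0618, 0.00294 and 0.00195. With only the libraries numbered 1 and 2, CXCL8 differed by 0.67, 0.64, 0.73 and 1.10, with adjusted p of 0.000284, 0.000343, 0.000125 and 2.74e-06. In those libraries 1177, 1582, 1306 and 1634 of the 16062 genes were called higher.

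CXCL2 was at 40.2, 42.5 and 36.9 TPM in siFLuc mock and 80.4, 76.3 and 65.5 in siFLuc IFN at 8 h, with no overlap. At 12 h, mock libraries held 47.9, 50.9 and 362 TPM and IFN-β libraries 93.2, 94.2 and 239, so the mock library numbered 4 exceeded all IFN-β libraries. In siBOP1 cells, 42.2, 41.3 and 28.7 stood against 53.3, 71.7 and 44.6 at 8 h, and 33.4, 39.6 and 121 against 80.6, 101 and 152 at 12 h, with overlap at 12 h only. Differences were 0.87 (SE 0.56), 0.41, 0.58 and 0.97, with adjusted p of 0.388, 0.702, 0.546 and 0.287. In siFLuc cells at 12 h the ratio of mean TPM was 0.925, opposite in sign to the mean log2 difference. The difference at 12 h in siFLuc cells moved with single libraries: it was 1.36 with adjusted p = 0.0374 without siFLuc mock number 4, -0.089 without mock number 1, -0.046 without mock number 2 and -0.040 without IFN number 4. With the block, adjusted p were 0.0288, 0.295, 0.122 and 0.0132. Fitted on its own 2 groups alone, without a block, CXCL2 in siFLuc cells at 8 h had an adjusted p of 0.00386. In that fit 751 of the 16062 genes were called higher. With only numbers 1 and 2, the CXCL2 differences were 0.91, 0.91, 0.56 and 1.29, with adjusted p of 0.000523, 0.000405, 0.0109 and 2e-05.

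CXCL1 was between 272 and 781 TPM in mock libraries (median 440) and between 362 and 768 with IFN-β (median 582). Its differences were the lowest of the set in all 4 comparisons, 0.45 (SE 0.23), 0.25, 0.33 and 0.35, with adjusted p of 0.257, 0.547, 0.379 and 0.361. With the block, adjusted p were 0.0109, 0.133, 0.0458 and 0.0355. With only numbers 1 and 2, the CXCL1 differences were 0.41, 0.38, 0.34 and 0.56, with adjusted p of 0.000754, 0.000978, 0.00213 and 4.13e-05. CXCL1 and CXCL2 are close paralogs: 15.5% of the 31-base words of CXCL1 transcripts and 13.9% of those of CXCL2 occur in the other gene. How reads shared by them were assigned is not given in the sources used here, so their split is uncertain to that extent.

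IL6 showed larger differences than the ELR genes and the widest spread of the set. It was at 5.39, 5.08 and 8.80 TPM in siFLuc mock and 20.6, 21.0 and 23.6 in siFLuc IFN at 8 h, and at 5.17, 4.80 and 4.59 against 21.4, 24.9 and 13.4 in siBOP1 cells. At 12 h, 6.32, 4.99 and 49.2 stood against 25.3, 27.0 and 78.5 in siFLuc cells, and 5.76, 4.10 and 19.2 against 22.4, 31.1 and 46.5 in siBOP1 cells. At 8 h no mock value reached an IFN-β value, whereas at 12 h in siFLuc cells the mock library numbered 4 lay among the IFN-β libraries. The differences were 1.65 (SE 0.60, adjusted p = 0.0899), 1.58 (0.0905), 1.79 (0.0481) and 1.89 (0.0377). With the block the adjusted p were 0.00149, 0.00166, 0.000565 and 0.000341. Fitted on its own 2 groups alone, without a block, IL6 in siFLuc cells at 8 h had an adjusted p of 0.00404. In that fit 751 of the 16062 genes were called higher.

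The siBOP1 calls of IL6 rested on 3 libraries a group. At 8 h, leaving out any 1 of the 6 libraries gave adjusted p of 0.104, 0.0994 and 0.115 (mock numbers 1, 2 and 4) and 0.12, 0.16 and 0.0511 (IFN numbers 1, 2 and 4). At 12 h, adjusted p was 0.126 without mock number 1, 0.168 without mock number 2, 0.0946 without IFN number 2 and 0.111 without IFN number 4. In siFLuc cells at 12 h the difference was 2.55 with adjusted p = 0.000746 without mock number 4. With only numbers 1 and 2, IL6 in siFLuc cells differed by 1.81 (8.97e-06) at 8 h and 2.04 (2.44e-06) at 12 h.

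Within column numbers, the IFN-β library exceeded the mock library in 12 of 12 pairs for CXCL8, IL6, CXCL5, CCL2, CCL5, CXCL10, CXCL11 and TNFSF13B, in 11 of 12 for CXCL2 and in 10 of 12 for CXCL1. For CXCL8 the difference was 0.59 to 1.21 in the 8 pairs numbered 1 or 2 and 0.06 to 0.94 in the 4 pairs numbered 4. For IL6 it was 1.75 to 2.66 in the former and 0.66 to 1.36 in the latter. The block assumes that equal column numbers pair libraries, which the labels do not state. With the block, 10 of the 10 genes were called higher in siFLuc cells at 8 h, 7 at 12 h, and 9 and 10 in siBOP1 cells, against 8.24%, 11.2%, 8.56% and 11.4% of all genes.

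BOP1 siRNA changed none of the 10 genes at the threshold, in mock or IFN-β cells, at 8 h or 12 h. Of all genes, 2.16% and 1.6% were called in mock cells at 8 h and 12 h, and 2% and 0.66% in IFN-β cells, in either direction (limma). At an unadjusted p under 0.05, 2 of the 10 genes passed in IFN-β cells at 8 h and 0 in each of the other 3 comparisons. Over all 16062 genes, 2191 passed at this level in IFN-β cells at 8 h, and 2076 (mock, 8 h), 2051 (mock, 12 h) and 1444 (IFN-β, 12 h) in the others. Those 2 were CXCL10, with 10.5, 10.9 and 12.1 TPM in siBOP1 against 8.54, 7.77 and 7.77 in siFLuc, and TNFSF13B, with 24.1, 25.8 and 23.4 against 19.2, 15.7 and 20.3. All siBOP1 values of both genes were above all siFLuc values, as were those of CCL2. These were 3 of the 10 genes, and the share of all genes without overlap was not counted. CXCL10 differed by 0.43 (95% CI 0.16 to 0.70, adjusted p = 0.0931) and TNFSF13B by 0.40 (0.10 to 0.70, adjusted p = 0.189). CXCL11 differed by 0.33 (-0.03 to 0.70).

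For CXCL10 at 8 h, the block gave an adjusted p of 0.0267, where 8.81% of all genes were called, and a fit without the intensity trend gave 0.0386. At 12 h the CXCL10 difference was 0.25 (-0.02 to 0.52). CXCL5 had the narrowest intervals, -0.16 to 0.24 and -0.27 to 0.12 in mock cells and -0.22 to 0.18 and -0.30 to 0.10 in IFN-β cells. For CXCL2, CXCL8 and IL6 the intervals were wide. In mock cells at 12 h they were -0.81 (-1.98 to 0.36), -0.56 (-1.35 to 0.23) and -0.55 (-1.80 to 0.70). Without the siFLuc mock 12 h library numbered 4, CXCL2 differed by 0.14 and IL6 by 0.42, the opposite direction. With only numbers 1 and 2, CXCL8 in mock cells at 12 h differed by -0.41 (adjusted p = 0.0495), where 162 of all genes were called higher and 127 lower. A p above the threshold does not show that siBOP1 and siFLuc cells are alike for these genes.

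CCL5 was lower in siBOP1 than siFLuc mock cells, with means of 1.49 against 2.78 TPM at 8 h and 1.17 against 2.33 at 12 h, and the ranges overlapped. The differences were -0.50 (-1.27 to 0.26) and -0.57 (-1.33 to 0.19). With IFN-β its means were 9.39 against 7.21 TPM at 8 h and 20.9 against 16.8 at 12 h, in the other direction and again with overlap. The corresponding siRNA by IFN interaction was 0.85 (95% CI -0.23 to 1.93) at 8 h and 0.90 (-0.18 to 1.98) at 12 h. For CXCL10 at 8 h this interaction was 0.60 (0.22 to 0.99), with an adjusted p of 1. No interaction of siRNA and IFN passed for any of the 10 genes at 8 h or 12 h, and 0% and 0% of all genes were called (limma). At an unadjusted p under 0.05, 2 of the 10 genes passed at 8 h and 0 at 12 h, against 353 and 259 genes over all.

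**Figure D4:**
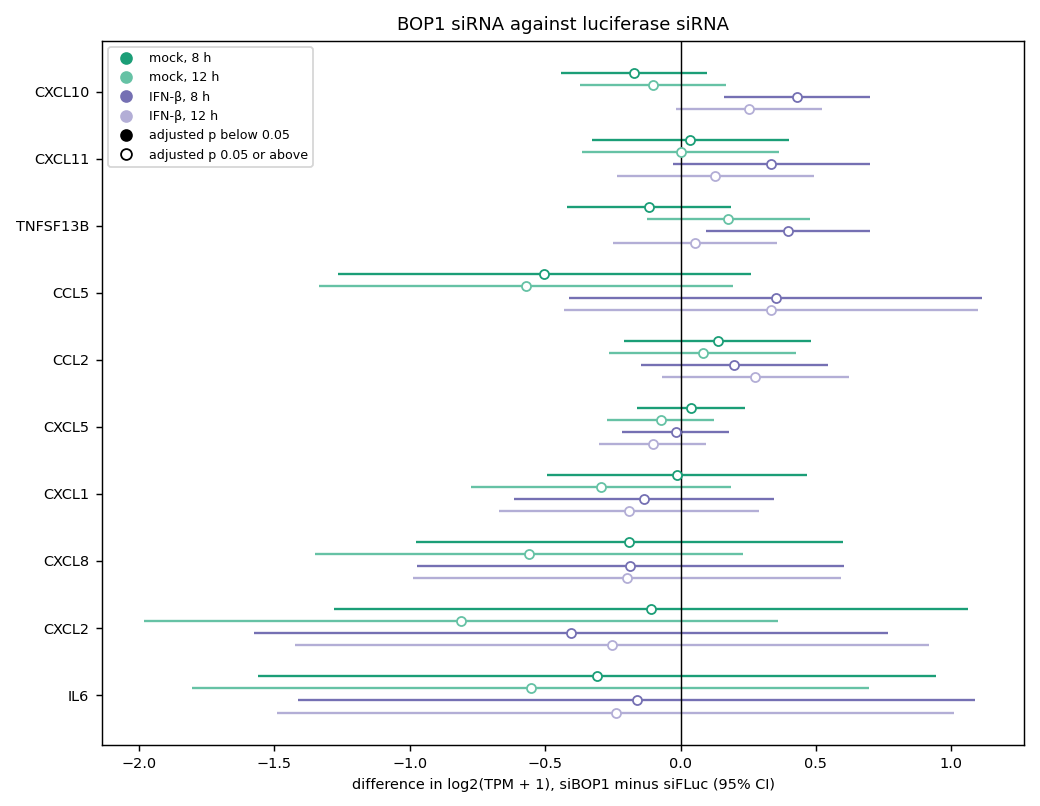
Difference in log2(TPM + 1) between siBOP1 and siFLuc libraries (points, with 95% confidence intervals from limma) for each gene, treatment and time; all points are open because no adjusted p is below 0.05. The CXCL10 and TNFSF13B intervals of IFN-β at 8 h lie above 0, and the widest intervals belong to CXCL2 and IL6.

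Between 8 h and 12 h of IFN-β, CXCL11 rose in both siRNA arms and CXCL10 in siFLuc cells. These 2 genes were called in siFLuc IFN cells, where 3.53% of all genes were, and CXCL11 alone in siBOP1 IFN cells, where 2.96% were. With siFLuc, CXCL11 averaged 6.24 ± 1.19 TPM at 8 h and 12.7 ± 3.31 at 12 h (SD, n = 3), a difference of 0.90 (SE 0.17, adjusted p = 0.0079). In siBOP1 cells it averaged 8.12 ± 1.31 and 13.8 ± 2.18 TPM, a difference of 0.70 (adjusted p = 0.0345). CXCL10 averaged 8.03 ± 0.446 and 12.0 ± 1.25 TPM in siFLuc cells, a difference of 0.52 (SE 0.13, adjusted p = 0.029). In siBOP1 cells it averaged 11.2 ± 0.857 and 14.5 ± 0.725, a difference of 0.34 (adjusted p = 0.157). In all 4 of these comparisons the 12 h libraries were above the 8 h libraries.

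These calls lie near the threshold. For CXCL11 in siBOP1 cells, leaving out any 1 of the 6 libraries ended the call: adjusted p was 0.0552, 0.143 and 0.0792 without the 8 h libraries numbered 1, 2 and 4, and 0.0637, 0.0848 and 0.122 without the 12 h ones. For CXCL11 in siFLuc cells, adjusted p was 0.0561 without the 8 h library numbered 2. For CXCL10 it was 0.107 without 8 h number 2, 0.101 without 8 h number 4, 0.0774 without 12 h number 1 and 0.105 without 12 h number 2. With a pseudocount of 0.1 none of the 3 passed, at adjusted p of 0.448 for CXCL10 in siFLuc cells and 0.0652 and 0.173 for CXCL11 in siFLuc and siBOP1 cells. Rescaling by median of ratios gave 0.0819 for CXCL10 in siFLuc and 0.0718 for CXCL11 in siBOP1 cells, and quantile normalization 0.19 and 0.121. Fitted on the 2 groups alone, adjusted p was 0.204 for CXCL10 in siFLuc cells and 0.199 and 0.142 for CXCL11 in siFLuc and siBOP1 cells.

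CCL5 had larger time differences with IFN-β, 1.09 (SE 0.37, adjusted p = 0.102) under siFLuc and 1.08 (0.115) under siBOP1, which did not pass. With only numbers 1 and 2 both passed, at 1.41 (0.00819) and 1.05 (0.0306). TNFSF13B went from 18.4 ± 2.37 to 19.7 ± 2.22 TPM in siFLuc and from 24.4 ± 1.24 to 20.5 ± 3.26 in siBOP1 cells. In mock cells no gene of the 10 passed in siFLuc or siBOP1 libraries, where 0.131% and 0.23% of all genes were called, and 3 and 0 of the 10 had an unadjusted p under 0.05, as did 2067 and 1549 of the 16062 genes. The time by IFN interaction compares the IFN effect at 12 h with that at 8 h. It was 0.90 (95% CI 0.39 to 1.42) and 0.73 (0.22 to 1.25) for CXCL11 and 1.20 (0.12 to 2.28) and 1.25 (0.17 to 2.33) for CCL5, in siFLuc and siBOP1 cells. None of the 10 passed after adjustment, with 0.00623% and 0% of all genes called, and 3 and 2 of the 10 had an unadjusted p under 0.05, as did 575 and 603 of the 16062 genes.

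By column number, the time differences separated for CXCL8, CXCL2, IL6 and CXCL1. For CXCL8, 12 h minus 8 h was -0.40 to 0.11 in the 8 pairs numbered 1 or 2 and 1.02 to 2.26 in the 4 pairs numbered 4. For CXCL2 the ranges were -0.33 to 0.59 and 1.74 to 3.26, for IL6 -0.19 to 0.35 and 1.69 to 2.36, and for CXCL1 -0.15 to 0.23 and 0.57 to 1.52. CXCL5, CCL2 and TNFSF13B showed no such separation, with 0.01 to 0.28, -0.27 to 0.31 and -0.11 to 0.12 in the pairs numbered 4. In siFLuc mock cells the group difference of CXCL2 was 1.25 (adjusted p = 0.347) and that of CXCL8 0.73 (adjusted p = 0.429), and with numbers 1 and 2 alone the latter was -0.029. The immediate-early genes moved with these libraries, as given above, and their part in the CXCL8, CXCL2, IL6 and CXCL1 values was not tested.

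**Figure D5:**
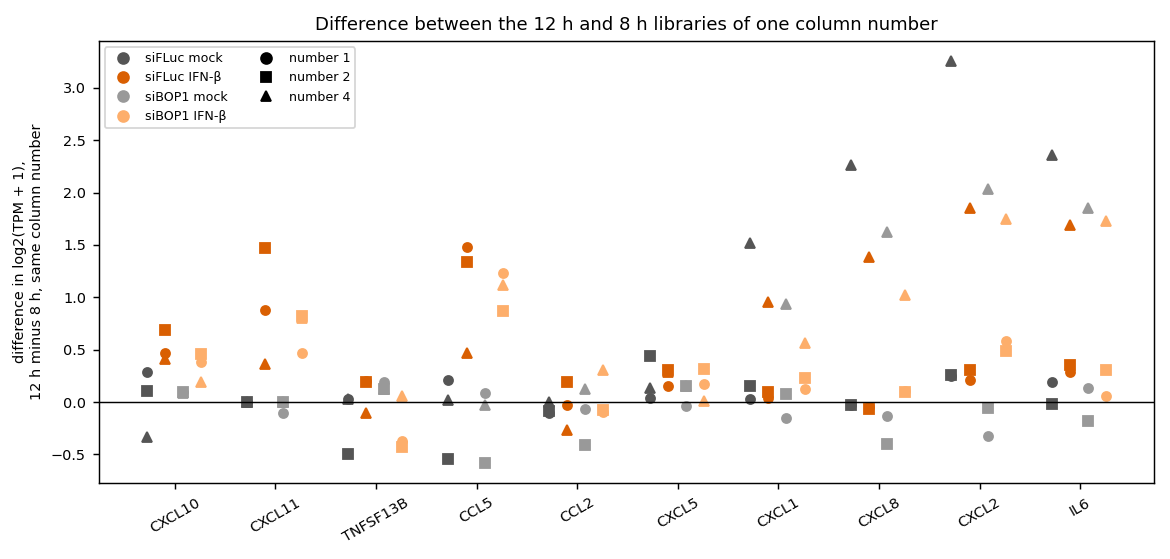
Difference in log2(TPM + 1) between the 12 h and the 8 h library of the same column number, for each gene and condition (colour) and number (marker). Triangles (number 4) lie above all circles and squares for CXCL1, CXCL8, CXCL2 and IL6, and below them for CXCL10, CXCL11, TNFSF13B, CCL5 and CCL2 in siFLuc IFN-β cells.

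Among 19 other chemokines, 8 were high enough to test, and the IFN effect was called higher for 3, 4, 3 and 5 of them, with none lower. The median difference of the 8 was 0.70, 0.88, 0.71 and 1.14. CXCL16, a membrane-bound ligand of CXCR6, rose by 1.53, 2.30, 1.95 and 2.05, from mock means of 6.55 to 8.40 TPM. CX3CL1 (fractalkine) rose by 0.66, 1.09, 0.94 and 1.45 but reached at most 2.23 TPM. CXCL3, another ELR chemokine, was not called, with 0.74, 0.39, 0.70 and 0.92. At 8 h its mock and IFN-β libraries did not overlap, at 63.8 to 78.0 and 111 to 130 TPM in siFLuc cells. In siBOP1 cells these were 45.9 to 65.3 and 74.7 to 114. At 12 h, siFLuc mock libraries held 73.5, 79.9 and 480 TPM and IFN-β ones 126, 117 and 429, with number 4 last. None of the 8 was called for BOP1 siRNA.

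Of 35 other cytokines, 25 were tested, with median IFN differences of 0.11, 0.36, 0.22 and 0.28. In the 4 IFN comparisons 6, 7, 8 and 9 of them were called higher, and 2 were called lower in each. Over all 16062 genes, 927, 1134, 962 and 1152 were called higher and 814, 1032, 1464 and 1218 lower. TNFSF10 (TRAIL), a death ligand, rose by 6.11, 6.00, 5.87 and 5.75, and IL18BP, which neutralises IL18, by 3.35, 3.78, 3.51 and 3.85. IL7, CSF1, IL12A and IL1RN also rose in all 4 comparisons, and TGFB2 fell by 0.64, 0.71, 0.78 and 0.71. IL11, a gp130 cytokine like IL6, was the 1 gene of this list that changed with BOP1 siRNA. It rose by 1.11 and 0.84 in mock and 1.32 and 0.93 in IFN-β cells at 8 h and 12 h (SE 0.16, adjusted p of 0.00056, 0.00828, 5.87e-05 and 0.00436). IL11 means were 40.2 to 44.8 TPM in siFLuc and 73.1 to 107 in siBOP1 cells, with no overlap of libraries.

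The 18 receptors and processing enzymes were mostly too low to test. CXCR1, CXCR3, CCR2 and TNFRSF13B were at 0 in every library, and CXCR2 at most 0.052 TPM. Of the 7 tested, IFNAR1 fell at 8 h, by 0.59 in siFLuc and 0.41 in siBOP1 cells. DPP4, a protease that trims CXCL10 and CXCL11, rose at 12 h, by 1.17 and 1.00. IFNAR2 rose by 0.55 in siBOP1 cells at 12 h. IL6R and IL6ST were not called.

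All 23 regulators were tested, and 7, 9, 9 and 11 were called higher with IFN-β, none lower, with medians of 0.55, 0.43, 0.62 and 0.71. IRF7 rose by 6.08, 5.56, 6.21 and 5.92, STAT2 by 4.20, 3.94, 3.96 and 3.74, IRF9 by 2.95, 2.77, 2.99 and 2.58 and IRF1 by 2.98, 2.48, 2.93 and 2.63. SOCS1, a feedback inhibitor of JAK kinases, rose by 3.88, 3.05, 4.04 and 3.61. Of the NF-κB side, RELA rose by 0.49, 0.82, 0.63 and 0.71. NFKBIA, the NF-κB inhibitor that is itself a target, was not called, with 0.68, 0.29, 0.85 and 0.95. At 8 h its groups did not overlap, with mock at 97.0 to 101 TPM and IFN-β at 150 to 174 in siFLuc cells. In siBOP1 cells these were 94.7 to 102 and 169 to 183. At 12 h, numbers 1 and 2 held 79.0 to 105 TPM in mock and 170 to 183 with IFN-β. The mock libraries numbered 4 held 704 (siFLuc) and 207 (siBOP1). TNFAIP3, another NF-κB target, was not called either, with 0.93, 0.36, 0.82 and 1.18. CEBPB, a factor of the IL6 and CXCL8 promoters, was higher in siBOP1 than siFLuc cells by 0.48 (adjusted p = 0.0456) in mock at 8 h and by 0.61 (0.0179) in IFN-β cells at 12 h.

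Over the 24 libraries, the genes outside the set whose log2(TPM + 1) was closest to each member were taken as its nearest genes. For CXCL10 these were PSME2, LAP3 and IFI35 (Pearson r of 0.997 each), for CXCL11 PSME2, LGALS9 and LAP3 (0.994, 0.991 and 0.991), and for TNFSF13B MX2, OASL and XAF1 (0.997 each). CCL5 was closest to CTSS, HLA-L and HLA-B (0.944, 0.942 and 0.935). CCL2 was closest to SERTAD1, SQOR and ACY3 (0.962, 0.957 and 0.948) and CXCL5 to TICAM1, STING1 and MASTL (0.93, 0.928 and 0.923).

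CXCL2 was closest to CXCL3, FOXN2 and PTGS2 (0.975, 0.952 and 0.951), CXCL8 to PDE4B, EFNA1 and ARRDC3 (0.934, 0.923 and 0.919), CXCL1 to EFNA1, MAP3K8 and SPRY1 (0.949, 0.911 and 0.903) and IL6 to IER2, DUSP5 and MIER1 (0.973, 0.965 and 0.962). Without the siFLuc mock 12 h library numbered 4, the values for CXCL2 with CXCL3 and IL6 with IER2 were 0.965 and 0.97. Libraries of a group and of a column number share their treatment and their shifts, so these values describe the table and carry no test.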

How the data were processed

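Bulk RNA-seq of A549 cells was used, 24 libraries in 8 groups of 3. Per the labels' protocols, siRNA was delivered with Dharmafect, RNA was taken up in TRIzol and purified on columns with DNase, and a stranded kit for mRNA was used. The authors deposited 1 table of TPM values, which are scaled by transcript length and library total; the aligner, quantifier and genome build are not given in the sources used here. Columns carry the numbers 1, 2 and 4; 16 columns matched a labelled replicate, and the 8 numbered 4 were used as members of their group.

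Values were taken as log2(TPM + 1), and the 16062 of 60609 gene rows that reached 1 TPM in 3 or more libraries were fitted with limma 3.58.1 in R 4.3.3 (1 mean per group, all 24 libraries, intensity trend, no block). Benjamini-Hochberg adjustment ran over all genes within each of 16 comparisons, with a threshold of 0.05. The main fit was tried on simulated data with independent noise in each library. That setting lacks shifts shared by libraries of a column number, so it does not show how the fit handles them. Deviations of same-numbered libraries from their group means correlated by 0.115 to 0.508 in all 24 values (3 numbers in each of 8 pairs of groups). Deviations within a group sum to 0, so a shift of number 4 alone also moves the values of numbers 1 and 2. For numbers 1 and 2 alone the correlations were -0.012 to 0.156, above 0.1 in 3 of 8. Pairing of these libraries is thus not established. A fit with the number as a block within each time assumes such pairing. It is given beside the results whose call it changes.

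The 10 genes and the lists of other chemokines, cytokines, receptors, regulators and markers were chosen with earlier results of these data known. Of each list, up to 8 genes past the threshold in all 4 IFN comparisons, ranked by mean effect, and any past it for BOP1 siRNA could be named, with the 3 genes most correlated with each of the 10. CXCL9, CXCL3, the receptors, DPP4, NFKBIA and TNFAIP3 fall outside this rule and were named after their values were seen. Some genes of the lists are not reported here. Promoter windows came from RefSeq (GRCh38.p14) and gene positions from GENCODE 29 (GRCh38), whose identifier version matched the table for 2 of the 10 genes. Figures were drawn with matplotlib 3.10.9 in Python 3.11.15. The alternatives were another pseudocount, other filters and scalings, no trend, other sample sets, the block, and leaving out each library.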

Additional observations from a re-analysis of the deposited data

How the results depend on the processing

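The IFN calls of CXCL10, CXCL11, TNFSF13B and CCL2 held under every alternative run, and the exceptions for CCL5, CXCL5 and IL6 are given with their values above or here. CCL5 in siFLuc cells at 8 h also lost its call with no filter (adjusted p = 0.0712), with only the libraries numbered 1 and 2 (0.0669) and with only the groups compared (0.132). IL6 in siBOP1 cells lost its call with no filter (0.118 at 8 h, 0.0939 at 12 h), without the intensity trend at 8 h (0.0577) and with only the groups compared at 12 h (0.0744). The number of the 10 genes called for IFN in siFLuc cells went from 6 to 10 at 8 h with the replicate block by column number, and from 6 to 10 at 12 h with only the libraries numbered 1 and 2. For BOP1 siRNA it went from 0 to 1 in mock cells at 12 h with only those libraries, and from 0 to 1 in IFN-β cells at 8 h both without the intensity trend and with the replicate block. For time in siFLuc IFN cells it went from 2 to 0 with a pseudocount of 0.1, 1 with median-of-ratios rescaling and 0 with only the groups compared, to 3 with only numbers 1 and 2, and between 0 and 2 when 1 library was left out. For time in siBOP1 IFN cells it went from 1 to 0 with a pseudocount of 0.1, no filter, median-of-ratios rescaling, quantile normalization or only the groups compared, to 2 with only numbers 1 and 2, and to 0 whichever library was left out. When 1 library was left out, CXCL2 in siFLuc cells at 12 h ran from -0.089 (also -0.046 and -0.040) to 1.36 for IFN, and in mock cells at 12 h from -1.38 to 0.14 for BOP1 siRNA, where IL6 ran from -1.15 to 0.42. The time difference of CXCL8 in siFLuc mock cells was -0.029 with only numbers 1 and 2. The cause of these shifts was not tested. Over all 16062 genes, numbers called higher and lower at these settings follow. For IFN in siFLuc cells they were 1323 and 2047 (8 h, block) and 1582 and 1821 (12 h, numbers 1 and 2). For BOP1 siRNA they were 162 and 127 in mock cells at 12 h (numbers 1 and 2). In IFN-β cells at 8 h they were 166 and 95 (no trend) and 799 and 616 (block). For time with IFN-β (numbers 1 and 2) they were 510 and 276 with siFLuc and 564 and 333 with siBOP1.

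Median-of-ratios rescaling moved the median of all genes by 0.136 in the siBOP1 8 h IFN comparison and by -0.103 for time in siBOP1 IFN cells. It changed the higher and lower calls for IFN from 927 and 814 to 1141 and 512, from 1134 and 1032 to 1373 and 803, from 962 and 1464 to 1324 and 698, and from 1152 and 1218 to 1421 and 856, for siFLuc at 8 h, at 12 h and siBOP1 at 8 h, at 12 h. Time effects have no value in the fit with the replicate block, because the block lies within each time. Of the 96 further values of the 10 genes that are not given singly, 0 were called, 55 changed sign under some alternative and 2 passed the threshold under one. Read depth is unknown, so precision at low TPM is known only from the replicates.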
